A study of Mus musculus with 20 samples.

Results

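The genes Slco4a1, Slco2b1 and Slco3a1 are the 3 members of the Slco family with a row among the 14456 genes of the normalized count table for mouse bone marrow-derived macrophages (BMDM). They were picked by symbol, from a list of 17 mouse Slco names, and the other names of that list were not analysed here. The choice was made with the response to high glucose known, since Slco4a1 had the largest increase of all genes there, so the values in high and normal glucose are given as a description and without a test. The exosome comparisons were not used to choose the genes and were tested.

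Total RNA was sequenced from 20 BMDM libraries, 4 in each of 5 groups. The bone marrow came from male wild type C57BL/6 mice. The culture methods give their age as 8 weeks, and another statement of the methods gives a range that starts at 8 weeks. It was differentiated with 25 ng/ml of M-CSF for 6 days, so that all 5 groups share this growth factor and 10% fetal bovine serum. In the glucose experiment the medium held 25 mM glucose (high glucose) or 5.5 mM glucose plus 19.5 mM mannitol (normal glucose), a sugar alcohol that evens out the osmolarity, and exposure lasted 24 h. In the exosome experiment naive BMDM received PBS or 2000000000 particles per ml of exosomes for 24 h. Exosomes are small vesicles shed by cells, here by other BMDM in normal glucose (BMDM-NG-exo) or in high glucose (BMDM-HG-exo). The exosome libraries carry 4 dates, each with 1 library of each group. The same replicate number in these groups marks the same date, but the numbers 1 to 4 are not in order of date. The exosome samples came from different exosome preparations, as the study states. Neither the labels nor that statement says whether the sequenced BMDM of a group came from separate animals or cultures. The p-values therefore rest on the spread between these libraries, which may in part be technical. In the limma fits the spread of each gene was drawn toward that of genes of similar level. The SEs, intervals and p-values are thus not from the spread of that gene alone.

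Slco genes encode organic anion transporting polypeptides, membrane proteins that carry large amphipathic molecules into cells without using ATP. Their cargo includes bile acids, thyroid hormones, prostaglandins, conjugated steroids and many drugs, and the family is best known from liver, kidney and the blood-brain barrier. Slco4a1 is broadly expressed and carries thyroid hormones, prostaglandins and taurocholate. Slco2b1 carries steroid sulfates, and Slco3a1 carries prostaglandins and thyroxine. In macrophages the family is less studied than the ATP-driven exporters of the same kinds of molecule.

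The 34016445 to 56310712 reads of a library (median 43311931) gave between 163 and 2956 reads for Slco4a1, between 430 and 1056 for Slco2b1 and between 112 and 359 for Slco3a1. The libraries carried macrophage transcripts: all 8 macrophage markers (Adgre1, Csf1r, Cd68, Itgam, Lyz2, Mertk, Fcgr1 and Cd14) were listed, with summed normalized counts between 628420 and 878735. None of the 8 lymphocyte, 5 dendritic cell or 8 erythroid and mast cell markers had a row. Of the neutrophil markers 5 of 8 had one, with sums of 164.8 to 378, as did 3 of 7 stromal markers, with sums of 107 to 349, and 2 of 5 endothelial markers, with sums of 280.3 to 456. None of the markers of these other cell types passed the test in any comparison. In such bulk samples, fewer cells of a type and less RNA per cell cannot be told apart.

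Slco4a1 (ENSMUSG00000038963) lies on chromosome 2 at chr2:180456245-180474867, plus strand, of GRCm38 in the GENCODE M21 annotation, over a span of 18623 bases with 4799 exonic bases. Slco2b1 (ENSMUSG00000030737) lies at chr7:99657804-99711340 on the minus strand and spans 53537 bases with 5958 exonic bases. Slco3a1 (ENSMUSG00000025790) lies on the same strand of the same chromosome at chr7:74275419-74554780 and is the longest, with a span of 279362 bases and 8474 exonic bases. No listed gene overlaps any of them.

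The sequences just upstream of the Slco4a1 and Slco2b1 starts are shown because these genes differed in opposite directions between the glucose groups. They are the 250 bases before the RefSeq start on GRCm38.p6, written in the direction of the gene, and capitals mark matches to 7 short motifs searched on both strands.
Slco4a1, chr2:180455995-180456244, plus strand: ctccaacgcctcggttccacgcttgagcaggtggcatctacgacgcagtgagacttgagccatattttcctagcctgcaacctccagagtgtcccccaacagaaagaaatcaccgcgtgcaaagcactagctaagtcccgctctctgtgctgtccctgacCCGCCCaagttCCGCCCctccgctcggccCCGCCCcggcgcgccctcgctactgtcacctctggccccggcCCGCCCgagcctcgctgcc
Slco2b1, chr7:99711341-99711590, minus strand: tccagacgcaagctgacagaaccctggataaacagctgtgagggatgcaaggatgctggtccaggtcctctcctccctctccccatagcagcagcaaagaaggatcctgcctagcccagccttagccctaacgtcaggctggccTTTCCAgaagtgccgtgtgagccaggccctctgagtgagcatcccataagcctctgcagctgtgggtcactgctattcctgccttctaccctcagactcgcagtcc
The motifs were TGACNNNGC, the core of the antioxidant response element, TGGAAA, the core of the tonicity element bound by NFAT5, the E-box CACGTG, the AP-1 site TGACTCA, the PU.1 site GAGGAAGT, the GC box GGGCGG and the TATA box TATAAA. Together with the 50 bases after the start, the Slco4a1 promoter had 65.3% G and C and 24 CpG dinucleotides, a G and C content above that of 82.3% of 32851 RefSeq promoters of the same length (median 52.7%). It held 4 GC boxes on the opposite strand, read here as CCGCCC, which begin 90, 79, 61 and 19 bases before the start, and none of the other motifs. The GC box occurs in 35.7% of all these promoters. The Slco2b1 promoter had 57% G and C and 5 CpG dinucleotides and held no GC box. It held 1 match to the NFAT5 core, TTTCCA on this strand, which begins 106 bases before the start and which 21.4% of all promoters hold. A PU.1 site (in 3.2% of promoters) and an AP-1 site (in 5.2%) lie within its first 30 transcribed bases and overlap by 1 base: atgaggGAGGAAGTGACTCAtcttccggat. PU.1 is a transcription factor that specifies myeloid cells. The antioxidant core was in 12.4%, the E-box in 7.15% and the TATA box in 13.6% of all promoters. A match of letters is a description of the window and not a binding site. There were 2 RefSeq promoters for Slco4a1, 3 for Slco2b1 and 0 for Slco3a1, so none could be shown for Slco3a1. Those of Slco4a1 and Slco2b1 that are not shown start inside the genes. The Slco2b1 promoter at start 3 holds another NFAT5 core match, TGGAAA, which begins 153 bases before that start.

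Slco4a1 had 539, 245, 187 and 236 normalized counts in the normal glucose libraries 1, 3, 5 and 6. It had 1837, 2381, 2642 and 3217 in the high glucose libraries 1, 2, 4 and 6. Each high glucose library was above every normal glucose library, and the highest value in normal glucose, that of library 1, stood apart from the other 3. In the exosome experiment Slco4a1 had 1748, 1314, 1286 and 1554 normalized counts in PBS replicates 1 to 4. It had 1365, 856, 816 and 921 after BMDM-NG-exo and 1899, 1367, 1188 and 1441 after BMDM-HG-exo. Replicate 1 was the highest of its group in all 3 exosome groups, and BMDM-NG-exo replicates 2 to 4 were below every other library of that experiment. By mean level the order was high glucose (2519 ± 574, SD, n = 4), PBS (1475 ± 218, n = 4), BMDM-HG-exo (1474 ± 303, n = 4), BMDM-NG-exo (989 ± 254, n = 4) and normal glucose (302 ± 160, n = 4). High glucose overlapped with BMDM-HG-exo but not with PBS, the PBS and BMDM-HG-exo groups could not be told apart, BMDM-NG-exo overlapped with both, and normal glucose overlapped with none. The glucose and exosome libraries come from separate experiments, so this order across them is a description.

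Slco2b1 had 798, 826, 823 and 885 normalized counts in the normal glucose libraries 1, 3, 5 and 6. It had 725, 455, 476 and 503 in the high glucose libraries 1, 2, 4 and 6. Every high glucose library was below every normal glucose library, and library 1 of high glucose was the nearest to them. In PBS replicates 1 to 4 it had 609, 740.0, 790.1 and 780.1 normalized counts. The values were 481, 749.5, 663 and 639 after BMDM-NG-exo and 473, 535, 559.6 and 619 after BMDM-HG-exo. Replicate 1 was the lowest of its group in all 3 exosome groups. The order of the means was normal glucose (833 ± 36.6, n = 4), PBS (729.8 ± 83.3, n = 4), BMDM-NG-exo (633 ± 112, n = 4), BMDM-HG-exo (547 ± 60.3, n = 4) and high glucose (540 ± 125, n = 4). Normal glucose did not overlap with PBS, although its lowest and the highest PBS library were only 798 and 790.1, and each of the other neighbours in this order overlapped.

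Slco3a1 had 226, 272, 173 and 253 normalized counts in the normal glucose libraries 1, 3, 5 and 6, and 335.5, 346, 277.5 and 314.5 in the high glucose libraries 1, 2, 4 and 6. The groups did not overlap, with 272 and 277.5 as the nearest values. In PBS replicates 1 to 4 it had 266, 225, 259 and 287 normalized counts. It had 191, 161, 191 and 119.8 after BMDM-NG-exo and 185, 151, 200.3 and 168 after BMDM-HG-exo. All 8 libraries exposed to exosomes were below the 4 PBS libraries. The means were ordered as high glucose (319 ± 30.4, n = 4), PBS (259 ± 25.7, n = 4), normal glucose (231 ± 42.9, n = 4), BMDM-HG-exo (176 ± 21.5, n = 4) and BMDM-NG-exo (166 ± 33.8, n = 4), and each pair of neighbours in this order overlapped.

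**Figure D1:**
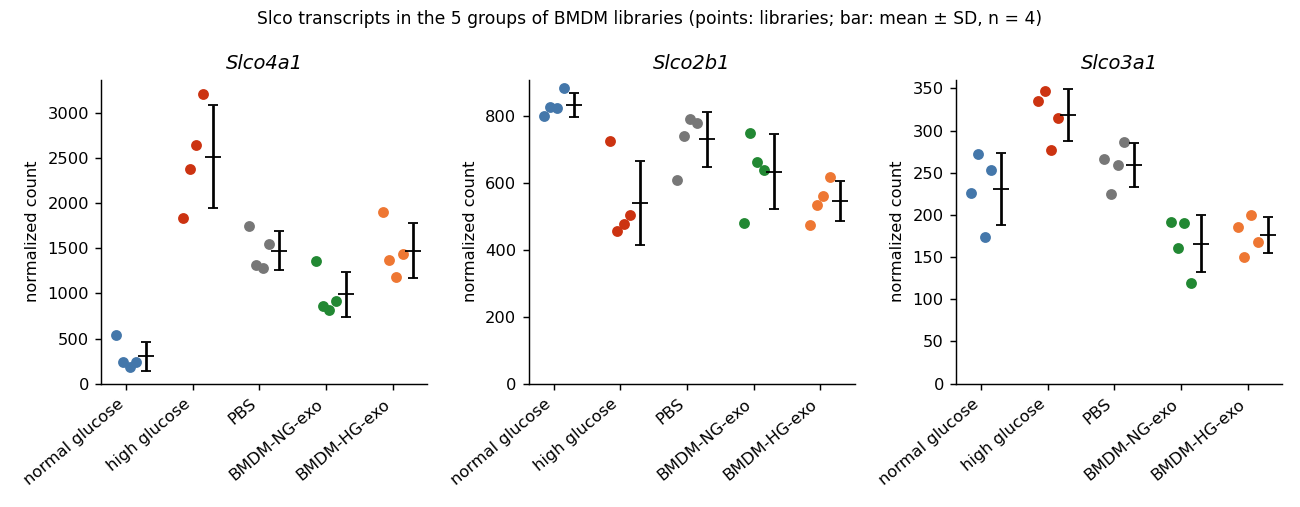
Normalized counts of Slco4a1, Slco2b1 and Slco3a1 in each library (points) by group, with the mean and SD of the 4 libraries as bars on a linear axis from 0. Slco4a1 sits between 187 and 539 in normal glucose and between 1837 and 3217 in high glucose, while Slco2b1 is lower and Slco3a1 higher in high glucose by smaller amounts.

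Levels can be compared between genes only per length, so the normalized counts were divided by the exonic kilobases. On this scale Slco2b1 was the highest of the 3 in normal glucose, with a mean level of 139.8 per kb against 62.9 for Slco4a1 and 27.3 for Slco3a1. In high glucose the mean level per kb was 525 for Slco4a1, 90.6 for Slco2b1 and 37.6 for Slco3a1. Slco4a1 made up 26.4% ± 9.94 (SD, n = 4) of the summed level of the 3 genes in normal glucose and 79.7% ± 6.44 (n = 4) in high glucose. It took 66.5% ± 4.74 in PBS, 61.4% ± 8.39 after BMDM-NG-exo and 72.7% ± 5.02 after BMDM-HG-exo (n = 4 each). Slco2b1 was therefore the leading transcript of the 3 in each normal glucose library, and Slco4a1 in each of the other 16. The margin was smallest in normal glucose library 1, where Slco2b1 held 49.1% and Slco4a1 41.2%. Among all listed genes, the mean level of Slco4a1 per kb lay above 31.5% of genes in normal glucose and above 80.1% in high glucose. For Slco2b1 these percentiles were 48.5 and 39.2, and for Slco3a1 18.2 and 24.1.

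Between high and normal glucose, Slco4a1 differed by a log2 fold change of 3.15 (SE 0.170, 95% interval 2.81 to 3.50), from the limma fit on log2 of the normalized count plus 1. This was the highest of the 14425 genes fitted, and without normal glucose library 1 it was 3.47. Slco2b1 had a log2 fold change of -0.65 (SE 0.102, interval -0.86 to -0.44). The log2 fold change of Slco3a1 was 0.48 (SE 0.139, interval 0.19 to 0.76). Slco3a1 stood 538th from the top and Slco2b1 521st from the bottom of the same list, so that their differences were far less extreme than that of Slco4a1. In all 3 genes the groups did not overlap, which was so for 16.3% of the genes fitted, and 13.3% of the genes were called at an adjusted p-value under 0.05. Because the genes were chosen with this contrast known, nothing is read from that count. The summed macrophage markers moved with these differences: they were between 628420 and 702912 in normal glucose and between 808014 and 878735 in high glucose, and their part in the differences was not tested. The markers did not move together: 4 of 8, Csf1r (0.35), Lyz2 (0.42), Cd14 (0.39) and Adgre1 (0.10), were called higher, Mertk (-0.40) and Cd68 (-0.15) were called lower, and the sum followed Lyz2, with means of 480718 in normal and 642842 in high glucose.

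**Figure D2:**
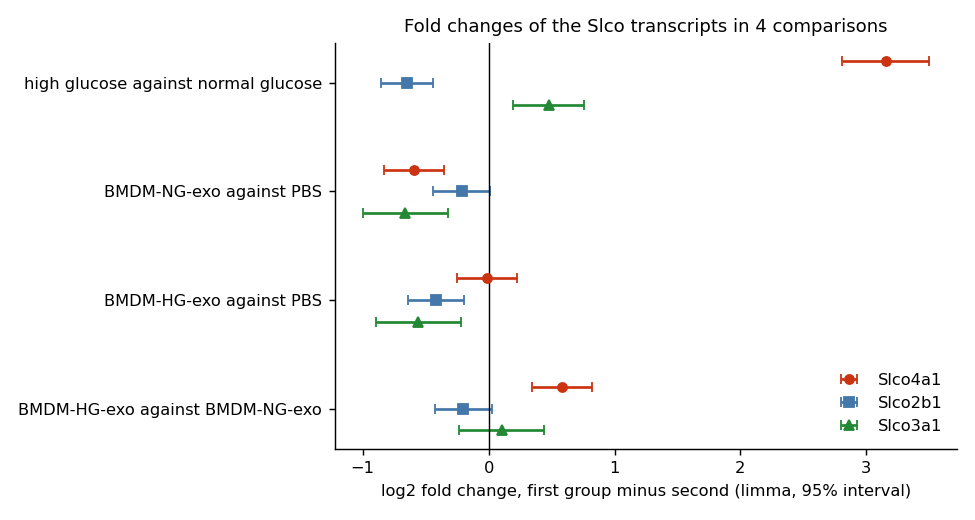
Log2 fold changes of the 3 Slco genes in 4 comparisons, each the first group minus the second, with 95% intervals from limma. The Slco4a1 difference of 3.15 between the glucose groups lies far from all the others, which run from -0.66 to 0.58.

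To examine whether exosomes of BMDM in normal glucose changed the Slco genes of naive BMDM, the BMDM-NG-exo and PBS libraries were compared. Slco4a1 fell by 0.60 on the log2 scale (SE 0.118, 95% interval -0.83 to -0.36, adjusted p = 0.00124, limma with Benjamini-Hochberg adjustment over 14413 genes), although BMDM-NG-exo replicate 1 overlapped with PBS. Slco3a1 fell by 0.66 (SE 0.166, interval -0.998 to -0.32, limma adjusted p = 0.0153), and all 4 BMDM-NG-exo libraries were below all 4 PBS libraries. Slco2b1 had a log2 fold change of -0.22 (SE 0.110, interval -0.44 to 0.009, limma adjusted p = 0.399). Thus 2 of 3 genes were called lower, where 2.11% of all genes were called lower and 3% were called in either direction. All libraries of the first group were below those of the second in 4.63% of all genes. The Slco4a1 call held without any one of the 12 libraries and was lost with DESeq2 (adjusted p = 0.0894), with all 20 libraries in 1 limma fit (0.0502) and without the variance trend in limma (0.220). The Slco3a1 call was lost without BMDM-NG-exo replicate 4 (adjusted p = 0.0911, limma) or without PBS replicate 4 (adjusted p = 0.0652, limma). Of the 8 macrophage markers 5 were also called lower, and the summed counts were 717507 to 773976 after BMDM-NG-exo and 794502 to 841224 in PBS. The markers' part in the Slco results was not tested.

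The BMDM-HG-exo libraries, exposed to exosomes of BMDM in high glucose, were compared with PBS in the same fit. Slco2b1 fell by 0.42 (log2, SE 0.110, 95% interval -0.64 to -0.19, limma adjusted p = 0.0163), and its groups overlapped in BMDM-HG-exo replicate 4 and PBS replicate 1. Slco3a1 fell by 0.56 (SE 0.166, interval -0.90 to -0.22, limma adjusted p = 0.0379), with all 4 libraries below PBS. The log2 fold change of Slco4a1 was -0.01 (interval -0.25 to 0.23, limma adjusted p = 0.978), so that a change of either sign beyond 0.25 lies outside its interval. Again 2 of 3 genes were called lower, where 3.08% of all genes were called lower, 4.84% were called in either direction and 5.59% lay below PBS in every library. Each call was lost when certain single libraries were left out. The Slco2b1 call was lost without BMDM-HG-exo replicate 1, PBS replicate 3 or PBS replicate 4 (limma adjusted p = 0.0828, 0.0533 and 0.0658). The Slco3a1 call was lost without BMDM-HG-exo replicate 1, 2 or 4 (limma adjusted p = 0.0544, 0.135 and 0.0833) or PBS replicate 1, 3 or 4 (0.0917, 0.0657 and 0.122). Here too 5 of 8 macrophage markers were called lower, with sums of 735061 to 759636 after BMDM-HG-exo, and their part in the Slco results was not tested. The comparisons with PBS share the same 4 PBS libraries.

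The direct comparison of BMDM-HG-exo with BMDM-NG-exo asks whether the glucose level of the donor cells mattered for the recipient cells. Slco4a1 had a log2 fold change of 0.58 (SE 0.118, 95% interval 0.35 to 0.82), with an unadjusted p of 1.769e-05 and an adjusted p of 0.0546 in limma, and was not called. Its p-value was the 4th lowest of all genes. Its groups overlapped through BMDM-NG-exo replicate 1. With the 4 dates as a block, so that libraries of the same date were compared with each other, the limma adjusted p of Slco4a1 was 2.34e-06 and the gene was called. It was also called without BMDM-NG-exo replicate 1 (adjusted p = 0.000115, limma), BMDM-HG-exo replicate 3 (0.0228), PBS replicate 1 (0.0483) or PBS replicate 3 (0.0355). Without any one of the other 8 libraries it was not called, with limma adjusted p-values up to 0.579 (without BMDM-HG-exo replicate 1). DESeq2 gave an adjusted p of 0.279. Slco2b1 had a log2 fold change of -0.20 (interval -0.42 to 0.02, limma adjusted p = 0.820) and Slco3a1 one of 0.10 (interval -0.23 to 0.44, limma adjusted p = 0.971). In this comparison 0.0139% of genes were called, which were Thbs1 and Selenop, named after their values were seen, both lower after BMDM-HG-exo. At an unadjusted p under 0.05 there were 942 genes, and 3.86% of genes had groups without overlap.

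Set side by side by date, Slco4a1 was lower after BMDM-NG-exo than in PBS on 4 of 4 dates, with ratios of normalized counts between 0.592 and 0.781. The ratio of BMDM-HG-exo over BMDM-NG-exo was 1.391, 1.597, 1.455 and 1.565 for replicates 1 to 4, above 1 on 4 of 4 dates. Between BMDM-HG-exo and PBS it ran from 0.924 to 1.087, on either side of 1. The level of a date thus differed more than the ratio within it, and replicate 1 was high in all 3 groups. Slco2b1 was lower after BMDM-HG-exo than in PBS on 4 of 4 dates (ratios 0.708 to 0.793) and lower than after BMDM-NG-exo on 4 of 4 (0.714 to 0.984). After BMDM-NG-exo it was below PBS on 3 of 4 dates (0.789 to 1.013). For Slco3a1 both exosome groups were below PBS on 4 of 4 dates, with ratios of 0.418 to 0.738 for BMDM-NG-exo and 0.585 to 0.774 for BMDM-HG-exo. Between the exosome groups its ratio ran from 0.938 to 1.4, above 1 on 2 of 4 dates. With 4 pairs, such counts alone are too few for a test.

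**Figure D3:**
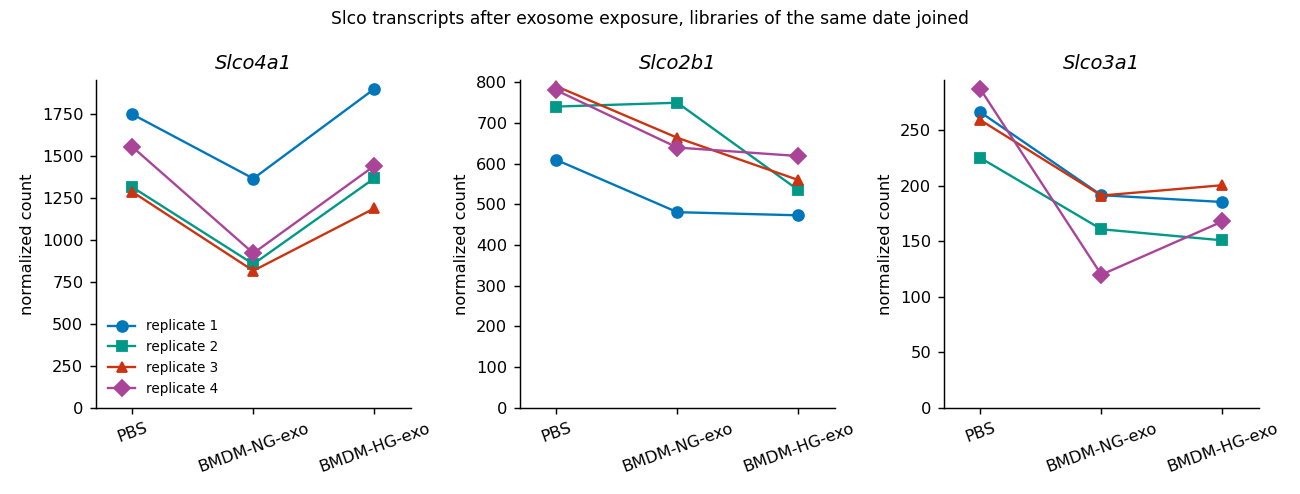
Normalized counts of the 3 Slco genes after PBS or either kind of exosome, with the libraries of the same date joined by a line, on a linear axis from 0. For Slco4a1 each of the 4 lines goes down to BMDM-NG-exo and up again to BMDM-HG-exo, and the line of replicate 1 lies above the other 3.

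The spread within groups differed by gene and by group. The coefficient of variation of Slco4a1 was 53.1% in normal glucose and between 14.8% and 25.7% in the other groups. That of Slco2b1 was 4.40% in normal glucose and 23.2% in high glucose, the reverse order. For Slco3a1 it ran from 9.53% in high glucose to 20.4% after BMDM-NG-exo. In normal glucose, PBS and both exosome groups, the library numbered 1 had the highest Slco4a1 and the lowest Slco2b1 of its group. The glucose and exosome libraries numbered 1 belong to separate experiments, and no label links them. In high glucose library 1 had the lowest Slco4a1 and the highest Slco2b1. Over the 20 libraries the Pearson correlation of Slco4a1 with Slco2b1 on the log2 scale was -0.730, and after each group mean was removed it was -0.567. The correlation of Slco4a1 with Slco3a1 was 0.270 and 0.154, and that of Slco2b1 with Slco3a1 -0.003 and -0.062, in the same order. The 20 points share groups, dates and 1 normalization, so these correlations are a description.

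**Figure D4:**
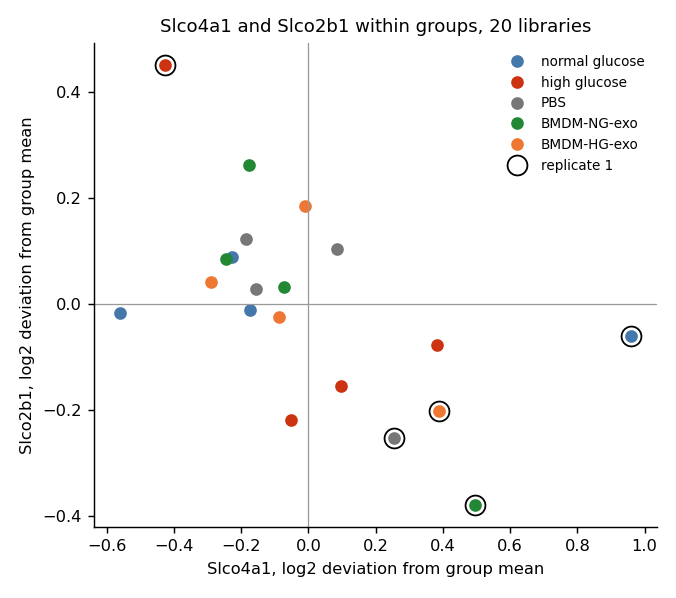
Deviation of each of the 20 libraries from its group mean in log2 normalized counts, for Slco4a1 (horizontal axis) and Slco2b1 (vertical axis), colored by group, with the library numbered 1 in each group circled. No label links the number 1 of the glucose libraries to that of the exosome libraries. The circled libraries are the extremes of their groups, at the lower right in 4 groups and at the upper left in high glucose, and the correlation is -0.567.

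Among 11718 genes whose mean reached 50, those with the pattern most like that of Slco4a1 over the 20 libraries were Pkm (Pearson r = 0.981), E2f2 (0.962), 2510009E07Rik (0.960), Txnrd1 (0.960) and Gclm (0.959). Pkm encodes the pyruvate kinase that ends glycolysis. Its means were 30415 ± 1300 normalized counts in normal glucose, 51379 ± 3199 in high glucose, 44927 ± 2479 in PBS, 41726 ± 1845 after BMDM-NG-exo and 44714 ± 2343 after BMDM-HG-exo (SD, n = 4 each), the same order of groups as for Slco4a1. Txnrd1, a thioredoxin reductase, and Gclm, the modifier subunit of the enzyme that starts glutathione synthesis, are antioxidant genes, and E2f2 is a transcription factor of the cell cycle. After the group means were removed, a different 5 genes led: Fgd3 (0.911), Eif4g1 (0.906), Shmt2 (0.852), Kif1c (0.848) and Sltm (0.831). Slco2b1 was most like Kctd12 (0.881), Lbh (0.880), Pf4 (0.857), Rhobtb1 (0.856) and Dab2 (0.852) over the 20 libraries. Pf4 encodes a platelet-type chemokine and Dab2 an endocytic adaptor. With group means removed Lbh led again, followed by Ccnd3 (0.783), Arpc1a (0.782), Ccdc166 (0.770) and Zfp783 (0.769). The genes most like Slco3a1 were Gvin1 (0.868), Dck (0.865), Slfn8 (0.859), Slfn2 (0.859) and Slfn5 (0.855). Gvin1, a large GTPase, and the Schlafen genes are known to be induced by interferon, and Dck is a deoxynucleoside kinase. With group means removed the leading genes of Slco3a1 were Jpx (0.818), Ube2k (0.773), Fam151b (0.771), Spag9 (0.769) and Mecr (0.765). All these genes were taken as the highest of 11718 over only 20 libraries. Such a choice alone yields high correlations, and none of them was tested.

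Of the 8 listed genes within 250 kb of the Slco4a1 gene, 2 rose in high glucose, where 13.3% of all genes were called in either direction, and 1 of them nearly as far as Slco4a1 itself. This was B230312C02Rik (ENSMUSG00000084843), a long intergenic noncoding RNA at chr2:180370491-180385885 on the opposite strand, whose start lies 70.4 kb upstream of the Slco4a1 start and which is the nearest listed gene. It had 13, 7.5, 1.1 and 0.84 normalized counts in normal glucose (14, 7, 1 and 1 reads) and 32.7, 36.0, 29.8 and 63.1 in high glucose (35, 34, 31 and 58 reads). The groups did not overlap, and its log2 fold change of 3.09 (SE 0.591, limma adjusted p = 0.000264) was the 2nd highest of all genes. Its mean was 5.61 in normal and 40.4 in high glucose. It thus reached the filter, a mean of at least 10, only through the high glucose libraries, and its call and rank are given as a description. At such low counts the fold depends on the pseudocount, and it was 2.21 with a pseudocount of 5. Without the variance trend its limma adjusted p was 0.0520. In PBS it had 15 to 45 reads, after BMDM-NG-exo 13 to 32 and after BMDM-HG-exo 10 to 28. Its log2 fold changes in the exosome comparisons were -0.57, -0.48 and 0.08, in the order used above, and none was called. Ogfr, the opioid growth factor receptor gene on the other side, rose by 0.28 in high glucose (limma adjusted p = 0.000168) and fell by 0.17 after BMDM-NG-exo and by 0.21 after BMDM-HG-exo, both against PBS (limma adjusted p = 0.0444 and 0.00470). Rps21, Cables2, Mrgbp, Col9a3, Dido1 and Gid8 were not called in any comparison. Around Slco2b1, 4 of 10 listed genes were called in high glucose, against 13.3% of all genes: Arrb1 (0.13) and the ribosomal protein gene Rps3 (0.23) rose, and Tpbgl (-0.59) and Gdpd5 (-0.36) fell. None of the 10 was called in an exosome comparison, and Slco3a1 had no listed gene within this distance. Against PBS, 3% of all genes were called after BMDM-NG-exo and 4.84% after BMDM-HG-exo.

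**Figure D5:**
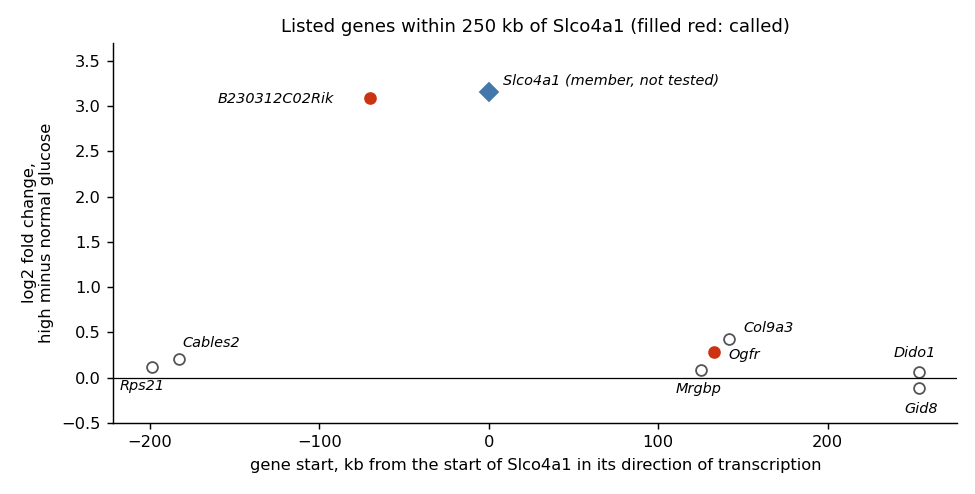
Log2 fold change between high and normal glucose of the 8 listed genes within 250 kb of the Slco4a1 gene, against the distance of their starts from the Slco4a1 start in kb. The lincRNA B230312C02Rik, 70.4 kb upstream, lies at 3.09 beside Slco4a1 at 3.15, and the other 7 genes lie between -0.11 and 0.42.

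The genes that handle the cargo of these carriers were examined as 5 lists. The share of all genes called between the glucose groups, 13.3%, is given beside them. The lists were chosen with earlier results of these data known. Their counts and p-values, here and in the list paragraphs below, are therefore a description and no test of the lists. Of 20 tested genes of prostaglandin synthesis, transport and breakdown (25 names), 8 rose and 1 fell in high glucose, with a median log2 fold change of 0.20 against -0.003 over all genes. Hpgd, the enzyme that inactivates prostaglandins once they are inside the cell, rose by 0.68 from 4873 ± 373 to 7803 ± 418 normalized counts (SD, n = 4 each, limma adjusted p = 2.64e-13). The prostacyclin receptor gene Ptgir rose by 0.57 and Akr1b3 by 0.25, while Tbxas1, the thromboxane synthase, fell by 0.19. Hpgd, Ptgs1 and Ptger4 rose in high glucose and fell after both kinds of exosome. Against PBS, Hpgd fell by 0.30 after BMDM-NG-exo and by 0.24 after BMDM-HG-exo. The cyclooxygenase gene Ptgs1 fell by 0.24 and 0.36, and the receptor gene Ptger4 by 0.32 and 0.44, in the same order. These were all 3 of the calls after BMDM-NG-exo, where 3% of all genes were called. After BMDM-HG-exo, where 4.84% of all genes were called, Ptgr1 also rose by 0.24. The list's medians against PBS were -0.03 and -0.02, near those of all genes (0.005 and 0.003).

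Of 14 tested genes of organic anion efflux and of other organic anion carriers (24 names), 3 rose and 2 fell in high glucose (median 0.02), beside 13.3% of all genes called. Abcc1, the multidrug resistance exporter of glutathione conjugates and leukotrienes, rose by 0.48 from 9885 ± 228 to 13829 ± 224 normalized counts (n = 4 each, limma adjusted p = 6.24e-13). Abcc5 rose by 0.18 and Abcb1b by 0.15, and Abcc10 fell by 0.52. No gene of this list was called in an exosome comparison, where 3% (BMDM-NG-exo) and 4.84% (BMDM-HG-exo) of all genes were called against PBS. Of 17 tested genes of porphyrin and heme handling (18 names), 4 rose and 1 fell in high glucose (median 0.05), again beside 13.3% of all genes. The heme oxygenase gene Hmox1 rose by 0.56 (limma adjusted p = 1.39e-12), the heme transporter gene Slc48a1 by 0.39 and the biliverdin reductase gene Blvrb by 0.30, and the heme exporter gene Flvcr1 fell by 0.19. After BMDM-HG-exo, Ppox, a late enzyme of heme synthesis, fell by 0.30 against PBS (limma adjusted p = 0.0216). It was the only call of this list there, beside 4.84% of all genes.

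Of 14 tested genes of thyroid hormone transport and response (20 names), 2 rose and 3 fell in high glucose (median 0.01), where 13.3% of all genes were called. Dio2, the deiodinase that activates thyroxine, fell by 1.58 from 87.3 ± 15.7 to 28.7 ± 5.66 normalized counts (n = 4 each, limma adjusted p = 0.000118). The receptor gene Thra fell by 0.27, the thyroid hormone carrier gene Slc16a10 rose by 0.18, and Slc3a2 fell by 0.14. In the exosome comparisons 13 genes of this list were tested, and the 1 call was Slc7a8, which fell by 0.17 after BMDM-HG-exo against PBS. Of all genes, 3% were called against PBS after BMDM-NG-exo and 4.84% after BMDM-HG-exo. Of 15 tested genes of steroid and steroid sulfate handling (20 names), 2 rose and 1 fell in high glucose (median 0.12), with 13.3% of all genes called. Sumf1, which activates sulfatases, rose by 0.22 and Hsd17b4 by 0.12, and the sulfotransferase gene Sult1a1 fell by 0.40. None of the 15 was called in an exosome comparison, beside the same 3% and 4.84% of all genes against PBS. In the direct comparison of the exosome groups no gene of the 5 lists was called, with 2 calls by limma among all genes.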

How the data were processed

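Values for 20 BMDM libraries were analysed. The authors mapped reads (STAR 2.5.3a), counted them per gene with FeatureCounts 2.0.1, taking read 2 as the sense strand, and divided them by DESeq2 1.20.0 median-ratio size factors, so the deposited signal is a normalized count. The labels name GRCm38, and the counting annotation is not given in the sources used here. Whole reads were recovered from the smallest step of each column (100% of values whole within 0.01). The lowest median of a listed gene was 11 reads, and genes below it were not analysed here. No 2 libraries of a group were copies (chi-square per degree of freedom 5.19 to 41.9 over 30 pairs).

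The normalized counts were fitted as log2(value + 1) with limma 3.58.1 in R 4.3.3 (eBayes with trend) for genes with a mean of at least 10, two-sided and with p-values adjusted by Benjamini-Hochberg. The 8 glucose and the 12 exosome libraries were fitted separately, the latter as 3 groups sharing 1 estimate of the spread. Calls needed an adjusted p-value under 0.05 and, for the exosome groups, a log2 fold change of 0.15 or more in either direction. Alternatives used edgeR 4.0.16 and DESeq2 1.42.0 on recovered reads, TMM factors, other pseudocounts, no filter, no trend, all 20 libraries, a replicate block and leaving out each library. The scripts were tested on simulated data.

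The Slco genes and the gene lists were chosen with earlier results of these data known. Named genes were the 3 Slco genes, up to 4 called genes of each list with the smallest p in the glucose comparison, the 5 most correlated genes, and called neighbours within 250 kb. Other list genes called in an exosome comparison, Thbs1 and Selenop were named after their values were seen. The dates in the exosome titles are the sole source of the pairing used for the block. The correlation over all genes gave little sign of it. After group means were removed, its mean was 0.0118 for 12 pairs of the same date and -0.00392 for 36 other pairs. The calls did change with the block. Called genes rose from 2 to 22 for BMDM-HG-exo against BMDM-NG-exo. Against PBS they rose from 432 to 505 (BMDM-NG-exo) and from 698 to 810 (BMDM-HG-exo). For Slco4a1 between the exosome groups, the limma adjusted p went from 0.0546 to 2.34e-06. GENCODE M21 matched 14421 genes, and promoters are RefSeq's on GRCm38.p6. Tables and figures used Python 3.11.15, pandas 2.3.3, numpy 2.4.6 and matplotlib 3.10.9.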

Additional observations from a re-analysis of the deposited data

Results flagged for a closer look

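The value of Slco4a1 in library 1 of normal glucose, 539.4 normalized counts, was far from the rest of its group: its gap to the next library was 0.8345 of the group's whole range, above Dixon's critical value for 4 samples. It was 1 of 15 groups tested in this way (3 genes in 5 groups), and chance marks about 1 in 20 such groups. The same library had the lowest Slco2b1 of its group. Without it the log2 fold change of Slco4a1 between high and normal glucose was 3.47, against 3.15 with it.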

How the results depend on the processing

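All 3 Slco genes kept their direction in high against normal glucose under each alternative, but not their size. With the library number as a block, only libraries 1 and 6, whose numbers occur in both groups, inform the contrast, as 2 pairs. Slco4a1 had 539 in normal and 1837 in high glucose in library 1, the flagged one in normal glucose. In library 6 it had 236 and 3217. The log2 fold change of this block fit was 2.76 for Slco4a1, -0.48 for Slco2b1 and 0.44 for Slco3a1. The Slco4a1 value lay below the lower end, 2.81, of its interval in the main fit. For Slco4a1 and Slco2b1 these differences were smaller than with any single library left out. With single libraries left out, the log2 fold changes between the glucose groups were 2.97 to 3.47 for Slco4a1, -0.80 to -0.58 for Slco2b1 and 0.35 to 0.56 for Slco3a1. For BMDM-NG-exo against PBS they were -0.76 to -0.51, -0.30 to -0.09 and -0.74 to -0.51, for BMDM-HG-exo against PBS -0.14 to 0.085, -0.50 to -0.35 and -0.62 to -0.49, and for BMDM-HG-exo against BMDM-NG-exo 0.46 to 0.75, -0.33 to -0.11 and -0.044 to 0.18, in the same order. The sign turned for Slco4a1 against PBS without BMDM-HG-exo replicate 2 (0.017) or 3 (0.085) or PBS replicate 1 (0.074) or 4 (0.017), and for Slco3a1 between the exosome groups without BMDM-NG-exo replicate 4 (-0.044), none of them called. The counts of called genes ran over 1370 to 2027, 292 to 453, 550.0 to 759 and 1 to 7.

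Without the variance trend, 654 genes were called between the glucose groups in place of 1914, 95 in place of 432 for BMDM-NG-exo and 295 in place of 698 for BMDM-HG-exo against PBS, and no Slco call of the exosome comparisons was left: Slco4a1 at -0.60 (limma adjusted p = 0.220) and Slco3a1 at -0.66 (0.0975) after BMDM-NG-exo, and Slco2b1 at -0.42 (0.182) and Slco3a1 at -0.56 (0.0983) after BMDM-HG-exo. The Slco4a1 call after BMDM-NG-exo was also lost with DESeq2 (-0.58, adjusted p = 0.0894) and with all 20 libraries in 1 limma fit (-0.60, 0.0502). The cause was not tested. In BMDM-HG-exo against BMDM-NG-exo, Slco4a1 was called with TMM factors (0.59, limma adjusted p = 0.0491) and with a pseudocount of 5 (0.58, 0.0346), and not with edgeR (adjusted p = 0.0677) or DESeq2 (0.279). The 2 genes called there became 22 with DESeq2, 5 with TMM factors, 5 with a pseudocount of 5, 1 with edgeR, 1 without the trend and 0 with all 20 libraries in limma (against 942 at an unadjusted p under 0.05 in the 3-group fit).

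With the dates as a block, Slco4a1 between the exosome groups was called (0.58, limma adjusted p = 2.34e-06), 22 genes were called in place of 2, and no other Slco call changed. In the glucose experiment only the library numbers 1 and 6 occur in both groups and nothing in the labels says that they mark a shared source. The correlation was 0.00844 over 2 pairs of the same number and -0.00121 over 14 others. With the number as a block, where only these 2 pairs inform the contrast, 788 genes were called, of which 721 were shared with the 1914. At 112 to 359 reads for Slco3a1, small differences are limited by depth. Among other named genes, these kept their glucose call in 7 of 9 alternatives: Abcb1b, Abcc5, Abcc10, Akr1b3, Arrb1, Flvcr1, Hsd17b4, Slc16a10, Slc3a2 and Thra. Gdpd5, Ogfr, Rps3 and Sult1a1 kept it in 8 of 9, and Hpgd, Abcc1, Hmox1, Slc48a1, Blvrb and Dio2 in 9 of 9. After BMDM-NG-exo the calls of Hpgd, Ptgs1 and Ptger4 held in 8 of 9. After BMDM-HG-exo that of Hpgd held in 7 of 9, and those of Ptgs1, Ptger4, Ptgr1, Ppox and Slc7a8 in 8 of 9.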
